A study of Drosophila melanogaster with 6 samples.

Results

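Genes of the unfolded protein response and of the integrated stress response were followed in the larval proventriculus, the valve-like organ at the junction of foregut and midgut. The list named 10 genes: the sensors Ire1, PEK and Gcn2, the transcription factors Xbp1, crc and Atf6, the endoplasmic reticulum (ER) folding genes Hsc70-3, Gp93 and Ero1L, and Thor, a repressor of translation. They were taken by symbol through the annotation of the array, out of 11982 genes with a probe set of their own. A probe set of 1 symbol was found for 8 of them, and Xbp1 and Thor are not analysed here. The transcription factors are thus represented by crc and Atf6 alone.

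The arrays were Affymetrix Drosophila 2.0 expression arrays, 6 in all, of RNA from larvae at instar 3. The 2 arrays of the unchallenged group and the 2 arrays of the G418 group answer which RNAs differ under a toxic challenge. G418 is an aminoglycoside that disturbs protein synthesis and is inactivated by a neomycin resistance gene product. The remaining 2 arrays are of unchallenged F3 larvae, 1 from a line whose F1 generation had been exposed and 1 from a line without that exposure. Larvae of all groups carried hairy-gal4, a driver active in the pattern of the hairy gene, and UAS-neoGFP. The sources used here give no G418 dose, larval age in hours or number of animals per array. Separate dissections or cultures behind 2 arrays of a group are not stated either, so p-values measure only the spread between those arrays, which may be technical. Where 2 values are given for a group, replicate 1 comes first.

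When unfolded proteins build up in the ER, 3 sensors in its membrane respond. IRE1 splices the mRNA of Xbp1 so that an active transcription factor is made, ATF6 is cut to release its own transcription factor domain, and the kinase PERK, PEK in flies, phosphorylates the translation factor eIF2. Gcn2 is a second eIF2 kinase, activated by amino acid shortage. Phosphorylated eIF2 slows general translation but favours that of crc, the fly ATF4, whose targets include genes of amino acid synthesis and, in flies, Thor. Splicing, cleavage and phosphorylation are not read by these arrays, which measure only how much transcript is present. All values below are log2 expression values, so a difference of 1 is a 2-fold difference, and levels are compared between arrays and not between genes.

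The arrays were not alike in markers of other tissues. A list's summed level here is the log2 of its summed linear values. For salivary gland markers, 9 of 9 measured, it was 11.15 and 15.16 in unchallenged larvae, 16.72 and 15.78 under G418, and 10.73 and 10.79 in F3 larvae without and with past exposure. For fat body markers, 4 of 7 measured, it ranged from 14.56 to 15.89 over the unchallenged and G418 arrays and was at 9.76 in F3 larvae without past exposure and at 13.56 in those with it. Nervous tissue markers, 6 of 7 measured, stood at 10.28 on unchallenged replicate 2 and between 7.05 and 7.38 elsewhere, so that array stood apart. G418 replicate 1 stood apart in the salivary gland markers ng1, ng2 and ng3, at 10.02, 10.39 and 12.25. On the other arrays ng1 lay between 3.10 and 5.23, ng2 between 3.17 and 4.42 and ng3 between 5.02 and 7.92. The proventriculus list, 5 of 6 measured, was detected on every array, from 12.02 on G418 replicate 1 to 13.17 in F3 larvae with past exposure. Muscle markers (3 of 5 measured) ranged from 9.83 to 10.62 and haemocyte markers (5 of 5 measured) from 8.96 to 10.55. The gene with the highest mean of its list was Pgant4 for proventriculus, Sgs7 for salivary gland, Lsp2 for fat body, brp for nervous tissue, Tm2 for muscle and He for haemocytes. RMA values have no 0. The values of brp lay between 5.17 and 6.05, while Sgs7 lay between 8.79 and 14.26. Other nervous tissue markers rose more than brp on unchallenged replicate 2. There fne was at 9.69, repo at 7.42 and elav at 6.81, against at most 3.92, 3.49 and 5.06 elsewhere. Rdl, at 5.35 there, and nSyb, at 4.73, rose little or not at all. In such bulk RNA, fewer cells of a type and less RNA per cell cannot be told apart, and the part of these tissues in the results below was not tested. The upper quartile of an array was lowest on G418 replicate 1, at 7.78, and highest on unchallenged replicate 2, at 8.10.

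In the comparison of G418 with unchallenged larvae, the 2 eIF2 kinases were lower, with no overlap between groups. Both ER folding genes Gp93 and Ero1L were higher with no overlap. The arrays of the 2 groups overlapped for the chaperone gene Hsc70-3, for Ire1 and for both transcription factors. None of these differences passed the test. Limma called 0 of 8 measured genes at an adjusted p under 0.05, and 0 of them had an unadjusted p under 0.05. Over all 18769 probe sets it called 0%, and 3.54% had an unadjusted p under 0.05. The adjusted p of the 8 genes ran from 0.788 to 0.972. An exact two-sided permutation test of 2 arrays against 2 cannot give a p under 0.333.

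**Figure D1:**
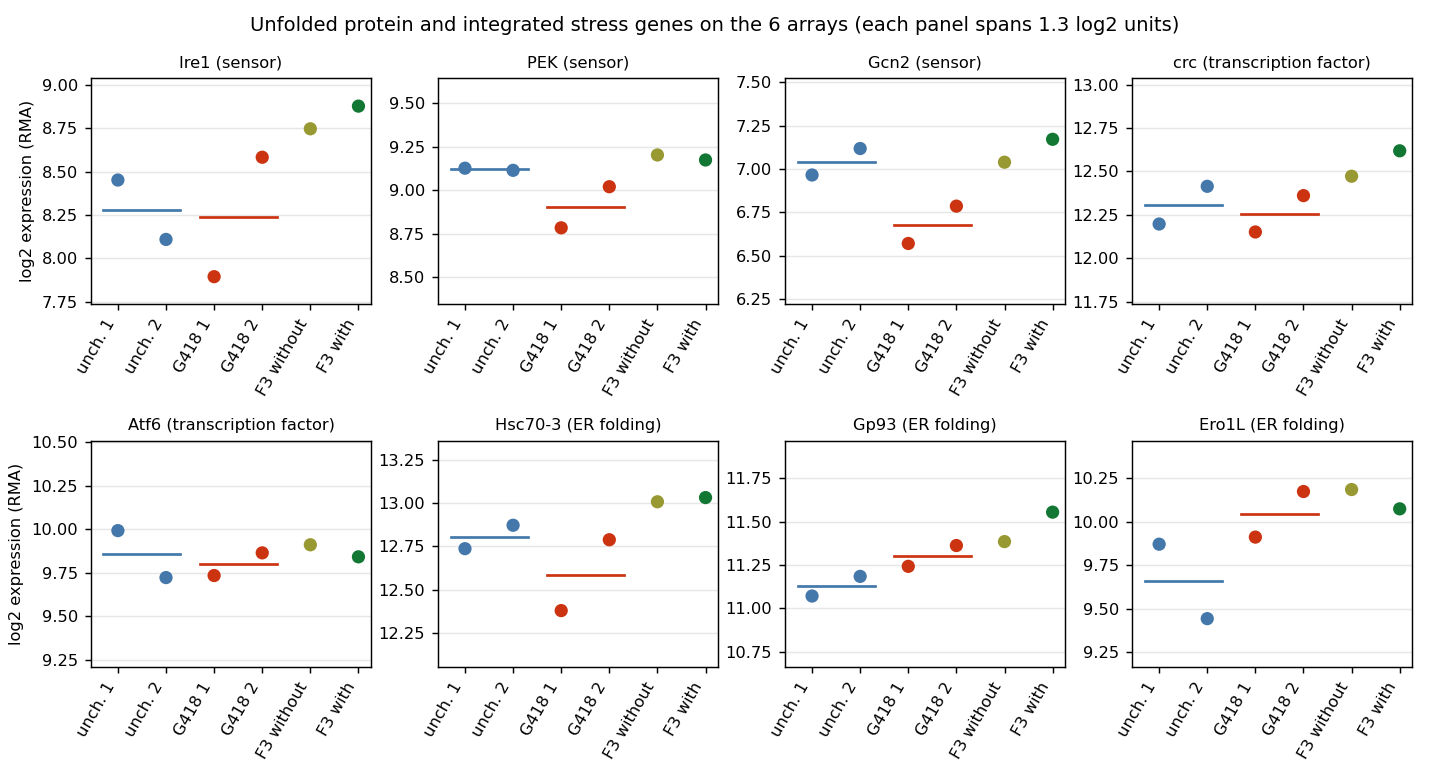
Log2 expression (RMA) of the 8 measured genes on each of the 6 arrays, with a point per array and a line at the mean of each replicated group; every panel spans the same height. PEK and Gcn2 were lower on both G418 arrays than on both unchallenged arrays, Gp93 and Ero1L were higher, and the other 4 genes overlapped.

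Among the sensors, PEK was at 9.13 and 9.11 in unchallenged larvae, 8.78 and 9.02 under G418, and 9.20 (no past exposure) and 9.17 (past exposure) in F3 larvae. The unchallenged arrays thus differed very little, both G418 arrays lay below them, and the F3 arrays lay slightly above. The log2 change with G418 was -0.22 ± 0.15 (SE), or 1.16-fold lower, with an adjusted p of 0.788 in limma. Without G418 replicate 1 it was -0.10, and without G418 replicate 2 it was -0.34.

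Gcn2, the amino acid-sensing kinase, was at 6.97 and 7.12 in unchallenged larvae, 6.57 and 6.79 under G418, and 7.04 (no past exposure) and 7.17 (past exposure) in F3 larvae. Both G418 arrays were the lowest of the 6. The difference was 1.29-fold, with a log2 change of -0.36 ± 0.16 (SE), a 95% interval from -0.80 to 0.07 and an adjusted p of 0.788 in limma. Its unadjusted p of 0.0823 was the lowest among the 8 genes. With 1 array left out the change lay between -0.47 and -0.26.

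Being below both unchallenged arrays was common: 20.1% of all 11982 genes were, against 2 of the 8 genes here. Above both were 18.3% of all genes, and again 2 of the 8. Neither share stands far from that of all genes.

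Ire1, the sensor that splices Xbp1 mRNA, was at 8.45 and 8.11 in unchallenged larvae, 7.90 and 8.58 under G418, and 8.75 (no past exposure) and 8.88 (past exposure) in F3 larvae. The 2 G418 arrays lay on either side of both unchallenged arrays and differed by 0.69, the widest replicate gap among the 8 genes. The change was -0.04 ± 0.30 (SE), with an adjusted p of 0.972 in limma, and it turned to 0.30 without G418 replicate 1 and to 0.13 without unchallenged replicate 1. It also turned to 0.10 after a further quantile normalization. Ire1 was the only one of the 8 with another probe set, which lay between 4.62 and 4.78 on all 6 arrays, below the median of each array, and differed by 0.0033 with G418.

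Of the transcription factors, crc was at 12.20 and 12.41 in unchallenged larvae, 12.15 and 12.36 under G418, and 12.47 (no past exposure) and 12.62 (past exposure) in F3 larvae. The 2 groups overlapped: replicate 2 lay above replicate 1 by 0.22 in the unchallenged group and by 0.21 in the G418 group. The change was -0.05 ± 0.17 (SE), with an adjusted p of 0.939 in limma and a 95% interval from -0.51 to 0.41. Leaving out unchallenged replicate 2 turned it to 0.06, and leaving out G418 replicate 1 turned it to 0.05.

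Atf6, whose protein is both sensor and transcription factor, varied least. Its values were 9.99 and 9.72 in unchallenged larvae, 9.73 and 9.86 under G418, and 9.91 (no past exposure) and 9.84 (past exposure) in F3 larvae. Both G418 arrays lay between the 2 unchallenged arrays, and so did both F3 arrays. Its range over the 6 arrays was 0.27, against a median range of 0.56 over all genes. The change of -0.06 ± 0.17 (SE) had an adjusted p of 0.929 in limma. It turned to 0.08 when unchallenged replicate 1 was left out and to 0.007 when G418 replicate 1 was.

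The ER folding genes did not go one way. Hsc70-3 encodes BiP, the main Hsp70 chaperone of the ER lumen and a classical target of the unfolded protein response. It was at 12.74 and 12.87 in unchallenged larvae, 12.38 and 12.79 under G418, and 13.01 (no past exposure) and 13.03 (past exposure) in F3 larvae. G418 replicate 1 was the lowest of the 6, while G418 replicate 2 lay between the unchallenged arrays. The log2 change was -0.22 ± 0.20 (SE), with an adjusted p of 0.794 in limma. Its 95% interval reached from -0.76 to 0.32, with an upper end at 1.25-fold. The interval rests on 2 arrays against 2, whose spread may be technical, so it sets no bound on the level in larvae. Without G418 replicate 1 the change was -0.02, and without G418 replicate 2 it was -0.42.

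Gp93 encodes the fly GRP94, an Hsp90-type chaperone of the ER. It was at 11.07 and 11.18 in unchallenged larvae, 11.24 and 11.36 under G418, and 11.38 (no past exposure) and 11.55 (past exposure) in F3 larvae. Both G418 arrays were above both unchallenged arrays by a small margin, and both F3 arrays were higher still. The difference of 1.13-fold had a log2 change of 0.17 ± 0.14 (SE) and an adjusted p of 0.788 in limma. It was between 0.11 and 0.23 with 1 array left out.

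Ero1L encodes the oxidase that supplies protein disulfide isomerases with oxidizing power in the ER. Its values were 9.87 and 9.44 in unchallenged larvae, 9.91 and 10.17 under G418, and 10.18 (no past exposure) and 10.07 (past exposure) in F3 larvae. G418 replicate 1 exceeded unchallenged replicate 1 by 0.04, while unchallenged replicate 2 was the lowest of the 6. The change was 0.39 ± 0.22 (SE), or 1.31-fold higher, with a 95% interval from -0.21 to 0.98 and an adjusted p of 0.788 in limma. Without unchallenged replicate 2, the array high in nervous tissue markers, it was 0.17, and without unchallenged replicate 1 it was 0.60. The summed salivary gland markers were 11.15 and 15.16 in unchallenged larvae, 16.72 and 15.78 under G418, and 10.73 (no past exposure) and 10.79 (past exposure) in F3 larvae. Their part in the Ero1L values was not tested.

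Set side by side by role, the median log2 change with G418 was -0.22 for the 3 sensors, -0.05 for the 2 transcription factors and 0.17 for the 3 ER folding genes. Over all genes the median was -0.02, and over the 7635 genes at or above the median mean, where all 8 lie, it was -0.11. Of the folding genes 2 of 3 were above and 0 below the unchallenged arrays, and of the sensors 2 of 3 were below and 0 above. Among all genes 18.3% were above and 20.1% below, and 3 genes a role are too few to set against these shares. For each of the 8 genes the 95% interval of the change held 0 and stayed within 2-fold in both directions. In 6 of the 8 the change was smaller than the wider of its 2 replicate gaps, the exceptions being Gcn2 and Gp93. Centring the arrays on their upper quartile, a scaling chosen after the data were seen, moved the median of all genes by 0.15, to 0.13. On that scale 5 of the 8 genes were above 0. Centring shifts every gene of an array alike, so it cannot alter the split around the median of all genes, 2 above and 6 below. After a further quantile normalization, which can alter it, 3 were above that median and 5 below.

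**Figure D2:**
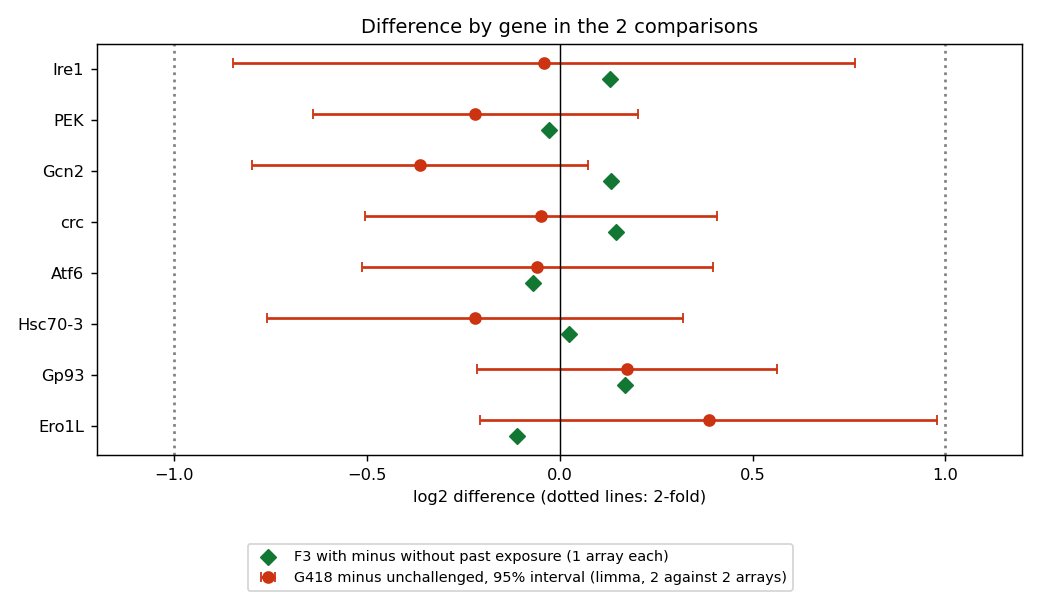
Log2 difference of each measured gene in the 2 comparisons: red points are G418 minus unchallenged with limma's 95% interval (2 arrays against 2), green diamonds are F3 with minus without past exposure (1 array each, no interval). Every red interval crosses 0 and ends inside the dotted 2-fold lines, and the diamonds lie between -0.11 and 0.17.

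Differences between 2 genes on the same array do not depend on how arrays are centred. Of 28 such pairs among the 8 genes, 17 had both G418 arrays apart from both unchallenged arrays, that is 60.7%. Among all pairs of genes at or above the median mean, 40.4% were apart in this way. The pairs share genes, so their number is a description with no test.

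Gp93 minus Gcn2 was 4.11 and 4.07 in unchallenged larvae, 4.67 and 4.58 under G418, and 4.35 (no past exposure) and 4.38 (past exposure) in F3 larvae. The 2 arrays of each group were close together, and the G418 arrays stood 0.54 higher on average, a 1.45-fold shift of the ratio. For the 2 chaperones, Gp93 minus Hsc70-3 was -1.67 and -1.69 in unchallenged larvae against -1.14 and -1.43 under G418, a difference of 0.39 with a within-group SD of 0.14. It was 0.25 when G418 replicate 1 was left out and 0.54 when G418 replicate 2 was. Ero1L minus Hsc70-3 was -2.87 and -3.43 in unchallenged larvae and -2.47 and -2.62 under G418, a difference of 0.61 that ranged from 0.32 to 0.89 with 1 array left out. Hsc70-3 and the sensor PEK stayed at a like distance: their difference was 3.61 and 3.76 in unchallenged larvae and 3.60 and 3.77 under G418. These 4 pairs were chosen after their values were seen. A further quantile normalization brought Gp93 minus Gcn2 from 0.54 to 0.38 and left Gp93 minus Hsc70-3 at 0.38.

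**Figure D3:**
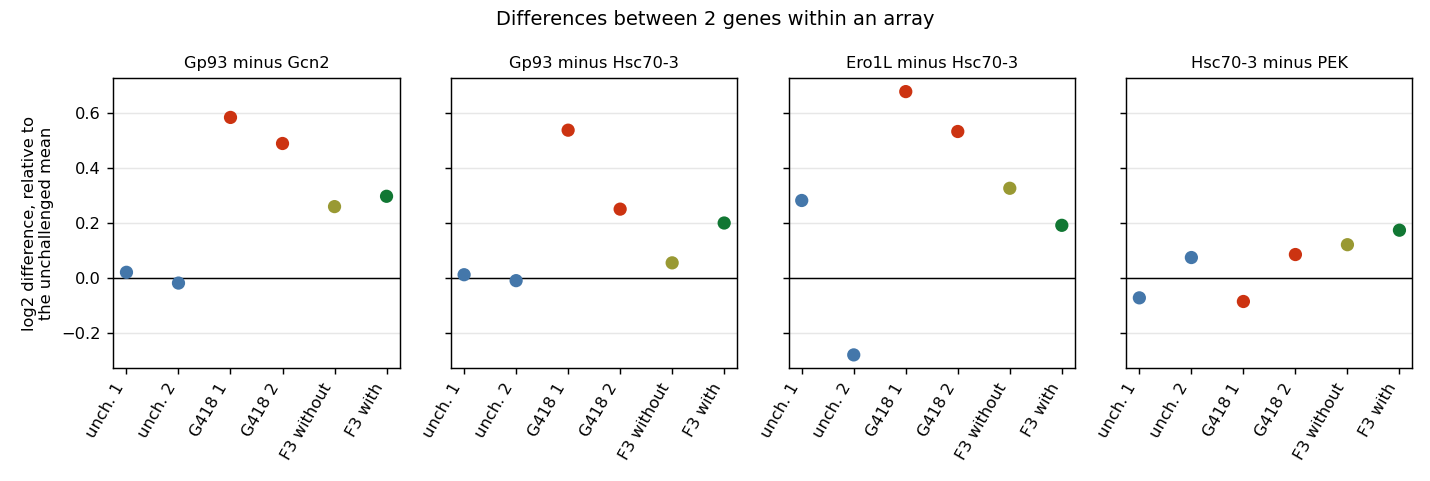
Difference in log2 expression between 2 genes on the same array, relative to the mean of the unchallenged arrays, with a point per array. The first 3 pairs put both G418 arrays above both unchallenged arrays, with Gp93 minus Gcn2 tightest within groups, and Hsc70-3 minus PEK overlaps.

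The second comparison set F3 larvae with past exposure against those without it, and the 8 genes differed little. Each side is a single array, so there is no replicate check. None of the 8 reached 2-fold, which 1.18% of all 18769 probe sets did. With past exposure 5 were higher, Gp93 by 0.17, crc by 0.15, Gcn2 and Ire1 by 0.13 each and Hsc70-3 by 0.02. The 3 lower ones were Ero1L at -0.11, Atf6 at -0.07 and PEK at -0.03. In 6 of the 8 this difference was smaller than the gap between the 2 unchallenged arrays, and in 7 of the 8 smaller than the gap between the 2 G418 arrays. The median was 0.08, against 0.02 over all genes.

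Over all 6 arrays, several genes had the same arrays as their highest and lowest. G418 replicate 1 was the lowest array for 5 of the 8: Ire1, PEK, Gcn2, crc and Hsc70-3. The same array was lowest for 32.8% of all genes and for 46.5% of those at or above the median mean. That set was not matched to the 8 genes in brightness. Both F3 arrays lay above the other 4 for 5 of the 8 genes: Ire1, PEK, crc, Hsc70-3 and Gp93. That was so for 11.6% of all genes and for 11.8% of those at or above the median mean. The margin, from the lower F3 array to the highest of the other 4, was small: 0.16 for Ire1, 0.14 for Hsc70-3, 0.06 for crc, 0.05 for PEK and 0.02 for Gp93 on the log2 scale. No test was made, and generation and any difference in handling between the F3 arrays and the others cannot be told apart. The summed level of the proventriculus markers was also highest on the F3 arrays and lowest on G418 replicate 1. Of the single markers, fkh, hh, dve and bowl were lowest on G418 replicate 1, and Pgant4 on unchallenged replicate 2. Both F3 arrays lay above the other 4 for fkh, dve and Pgant4. The exceptions were bowl, highest on unchallenged replicate 2, and hh, higher on that array than in F3 larvae with past exposure. The part of these markers was not tested.

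The genes whose values over the 6 arrays were most like those of Hsc70-3 were Caper, pita and CG16974. Likeness was the root mean square difference of log2 values centred on each gene's mean, compared over 7634 genes, and it was 0.0304, 0.0311 and 0.0378. By the same measure CG4839, Daao1 and dia were nearest to Ero1L, a gene chosen for this after its values were seen, at 0.0559, 0.0622 and 0.0703.

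Other genes of the same pathways were listed in 4 groups, of which 38 of 46 genes were measured. Limma called 0 of the 38, and 1 had an unadjusted p under 0.05. The changes were as often up as down, with 19 higher and 19 lower and a median of -0.003. Both G418 arrays were above both unchallenged arrays for 11 of them and below for 6, against 18.3% and 20.1% of all genes.

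Genes that bring proteins into the ER had a median of 0.10, with 6 of 9 higher and 3 lower. It was 0.08 without G418 replicate 1 and 0.17 without unchallenged replicate 2. Sec61alpha, the channel subunit of the translocon, was at 11.59 and 11.52 in unchallenged larvae and 11.82 and 12.04 under G418. The signal peptidase genes Spase12 and Spase25 had changes of 0.47 ± 0.20 and 0.33 ± 0.14 (SE), with both G418 arrays above both unchallenged arrays. All 3 had an adjusted p of 0.788 in limma. In the F3 pair, with 1 array a side, all 9 genes of this group were higher with past exposure, from 0.02 to 0.34. Their median was 0.26, against 0.02 over all genes and 0.02 over those at or above the median mean. The lowest of these differences was read on a dim probe set, at 4.37 without and 4.40 with past exposure. The share of all genes higher with past exposure was not counted. Summed fat body markers were at 9.76 without and 13.56 with past exposure, and their part was not tested.

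Of 11 measured genes of ER folding beyond the 3 above, 6 were higher and 5 lower, with a median of 0.0027 that ranged from -0.05 to 0.08 with 1 array left out. That median is the value of Cnx14D, whose probe set lay between 3.54 and 3.78, below the median of each array. Pdi, counted as higher with no overlap, was dim too, between 3.23 and 3.47. P58IPK, a DnaJ-type partner of BiP, was at 10.05 and 9.81 in unchallenged larvae and 10.21 and 10.37 under G418. CaBP1, of the protein disulfide isomerase family, was 1.25-fold higher, with a change of 0.33 ± 0.20 (SE). The related gene wbl went the other way, from 8.43 and 9.80 to 7.73 and 8.20, a 2.22-fold difference whose 2 unchallenged arrays lay far apart. Each had an adjusted p of 0.788 in limma.

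ER-associated degradation returns misfolded proteins to the cytosol for destruction. Its 9 measured genes had a median of -0.01, with 4 higher and 5 lower and none beyond 0.21 in either direction. Leaving out G418 replicate 2 moved the median to -0.17, leaving out G418 replicate 1 moved it to 0.10, and upper quartile centring gave 0.13. TER94, the ATPase that extracts substrates, was at -0.20 ± 0.18 (SE), Der-2, a Derlin, at 0.17 ± 0.14 and Herp at 0.21 ± 0.20. Their adjusted p lay between 0.788 and 0.803 in limma.

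Integrated stress targets and eIF2 factors had a median of -0.11, with 3 of 9 measured genes higher and 6 lower. Over all genes at or above the median mean it was -0.11 too. The median of the list was -0.007 without G418 replicate 1 and -0.17 without G418 replicate 2, and it turned to 0.04 with upper quartile centring. The pseudokinase gene trbl, whose mammalian relative TRIB3 is a target of ATF4, was at 7.67 and 7.45 in unchallenged larvae, 8.08 and 8.07 under G418, and 7.80 (no past exposure) and 7.92 (past exposure) in F3 larvae. Its groups did not overlap, and the change of 0.52 ± 0.15 (SE), or 1.43-fold, had an unadjusted p of 0.0248 and an adjusted p of 0.788 in limma. The asparagine synthetase gene AsnS, also an ATF4 target in mammals, was at 6.99 and 6.65 in unchallenged larvae and 7.74 and 6.89 under G418, which overlapped. The phosphoserine phosphatase gene aay was lower, from 10.06 and 9.94 to 9.72 and 9.60, with a change of -0.34 ± 0.14 (SE). aay was also lower with past exposure in the F3 pair, at 9.84 without and 9.27 with it.

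**Figure D4:**
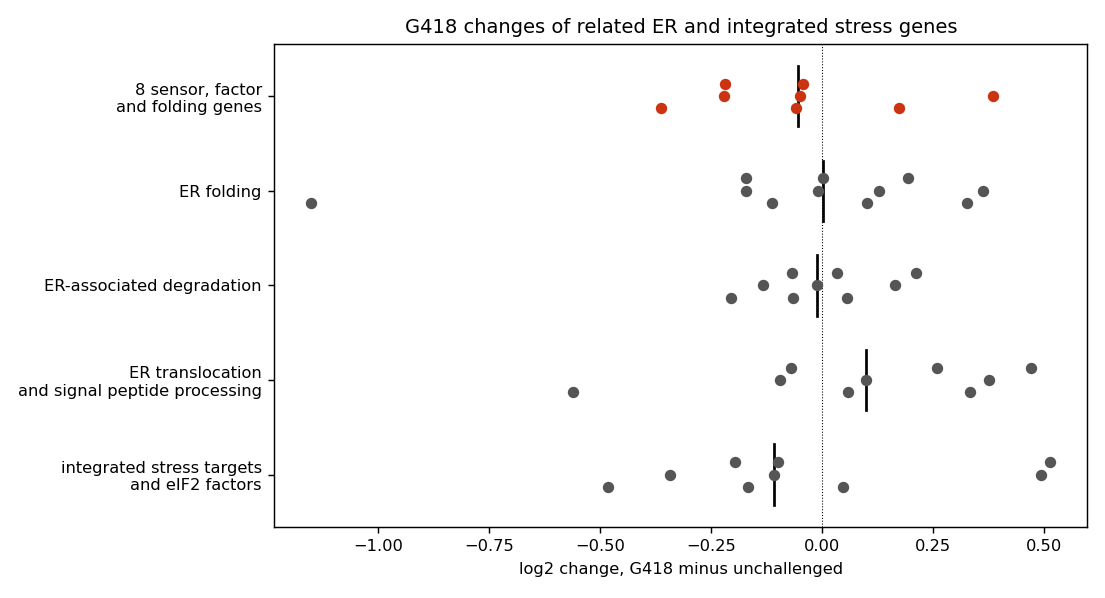
Log2 change with G418 of each measured gene, by list, with a black bar at the median of the list; red points are the 8 genes described first. Every list straddles 0, with medians from -0.11 to 0.10 for the 4 lists, and wbl lies farthest out at -1.15.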

How the data were processed

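Total RNA of proventriculus was read on 6 Affymetrix Drosophila 2.0 arrays. The authors deposited log2 expression values; per the submitters' processing notes they used RMA and Affymetrix Expression Console. RMA adjusts background, equalises arrays and combines the probes of each probe set, which shrinks small differences of dim probe sets. Its version and the set of arrays normalized jointly are not stated.

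Of 18952 probe sets 183 controls were left out. Symbols came from the platform annotation, updated by gene identifier through a RefSeq table (assembly Release 6): 13647 probe sets had 1 symbol, 402 several and 4720 none here, and 103 kept an older symbol. The probe set with the highest mean stood for a gene. Those of Hsc70-3 and Atf6 carry the array maker's mark for probes shared between transcripts, which may include other genes.

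Limma 3.58.1 (R 4.3.3) tested G418 against unchallenged arrays over 18769 probe sets, with Benjamini-Hochberg adjustment and a threshold of 0.05. It was also run on simulated data with independent noise and changes larger than those of the listed genes. That run cannot show whether differences of their size would be called. F3 arrays and role medians were described without a test. Array values have no depth, so the number of arrays limits precision.

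Genes and lists were chosen with earlier results of these data known. Named are the listed genes, per related list the 3 genes with the lowest unadjusted p, the brightest gene of each marker list and the 3 genes nearest to Hsc70-3; the last was planned for Xbp1 and Thor too. Alternatives changed the blocking, variance prior, filter, scaling, probe set and arrays included.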

Additional observations from a re-analysis of the deposited data

How the results depend on the processing

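No setting called any of the 8 genes, and with 1 array left out, the replicate block or quantile normalization none of the 38 related genes was called. Directions of PEK, Gcn2, Hsc70-3, Gp93 and Ero1L with G418 were kept in all 10 alternatives run for each. The replicate block, the trended robust variances and the filter at the median mean cannot alter the change itself. Leaving out 1 array could not turn PEK, Gcn2, Gp93 or Ero1L either, because their groups did not overlap. Only the scalings could have turned those, and for Hsc70-3 also the fits with 1 array left out. Ire1 turned to 0.10 after quantile normalization and to 0.10 with upper quartile centring, to 0.0033 on its other probe set, and ranged from -0.39 to 0.30 with 1 array left out. With upper quartile centring crc turned to 0.10 and Atf6 to 0.087; with 1 array left out they ranged from -0.16 to 0.059 and from -0.19 to 0.077. The sensor median ranged from -0.39 to -0.10 with 1 array left out and the transcription factor median from -0.14 to 0.031. Upper quartile centring put the sensor median at -0.073, the transcription factor median at 0.091 and the ER folding median at 0.32. After quantile normalization the sensor median was -0.12. With upper quartile centring PEK was at -0.073, Hsc70-3 at -0.075, Gcn2 at -0.22, Gp93 at 0.32 and Ero1L at 0.53. Over all probe sets limma called 1 with trended robust variances, 1 with upper quartile centring and 1 at a threshold of 0.1, and from 0 to 251 with 1 array left out: 251 without unchallenged replicate 1 and 4 without unchallenged replicate 2. With the replicate number as a block it called 0, with 2187 unadjusted p under 0.05 against 664 without it. Nothing in the labels ties same-numbered arrays together, and their deviations correlated at 0.315. The F3 differences of the 8 genes moved by less than the replicate spread in each alternative. Upper quartile centring and the pair and list values were added after the data were seen. The cause of these shifts was not tested.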

Other observations

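A few further genes of the related lists were chosen after their values were seen. The ER folding gene prtp was at 12.19 and 11.94 in unchallenged larvae, 11.87 and 11.92 under G418, and 11.33 (no past exposure) and 10.57 (past exposure) in F3 larvae. Both F3 arrays lay below the other 4, a direction opposite to that of Hsc70-3 and Gp93. The stress-induced growth inhibitor gene scyl was at 9.82 and 10.23 in unchallenged larvae and at 9.02 and 10.06 under G418, so that its 2 G418 arrays differed more than the groups did. The probe sets read for Pdi and Cnx14D were dim, between 3.23 and 3.47 and between 3.54 and 3.78 on the 6 arrays.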
